A study of Mus musculus with 10 samples.

Results

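The step from DN2a to DN2b, the point at which early T cell precursors commit to the T lineage, was examined in 4 of the 10 RNA-seq libraries of the series. The 4 libraries were taken by their stage label and comprised 2 libraries of DN2a cells (KIT++CD44+CD25+) and 2 of DN2b cells (KIT+CD44loCD25+). All came from LSK cells (Lin-SCA1+KIT+ marrow cells) of C57BL/6J mice, cultured on a high density of the immobilized Notch ligand Delta1 with the 4 growth factors SCF, FLT-3 ligand, IL-6 and IL-11, to which IL-7 was then added. Both stages therefore had IL-7, unlike the 2 DN1 libraries (KIT++CD44+CD25-, cultured without IL-7), and sorted populations from culture on a plate-bound ligand stand in here for cells of the thymus. The 4 libraries of the no Notch control were LSK cells kept on IgG and harvested on day 14. They entered the choice of genes tested, the scaling of CPM and the spread of the 10-library fit. They did not enter the paired fit of the 4 DN2 libraries.

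In the thymus, precursors enter as DN1 cells and receive Notch signals from the stroma. DN2a cells have turned on CD25 and many T-lineage genes but can still give rise to myeloid, dendritic, mast and innate lymphoid cells in permissive conditions. By DN2b this capacity has largely been lost, KIT and CD44 are reduced at the surface, and the genes needed to rearrange and signal through the T cell receptor (TCR) are being switched on.

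The DN2a and DN2b libraries fell into 2 pairs that carried the same date in their labels, 12-12-12 for the earlier libraries and 6-12-13 for the later, so each DN2b library was paired with the DN2a library of its date. They are called the earlier and the later pair here, and where 2 values are given for a stage the earlier library comes first. Reads counted on genes ranged from 12354635 to 27451369 over the 4 libraries, which put the detection floor of 3 counts between 0.107 and 0.239 CPM (counts scaled to a common library size). One library stood apart. Over 21 endothelial, stromal, muscle and keratin genes, chosen after their values were seen, the summed level was 231 and 180.5 CPM in DN2a but 117 CPM in the earlier DN2b library and 774 CPM in the later DN2b library, where none of the 21 was at the floor. The type IV collagen chain *Col4a1* was at 3.58 and 6.16 CPM in DN2a and 0.934 and 123 CPM in DN2b. The endothelial markers *Pecam1* (68.2 and 84.8 CPM in DN2a and 65.3 and 63.1 CPM in DN2b) and *Cdh5* (0.466 and 1.11 CPM in DN2a and 0.133 and 13.5 CPM in DN2b) did not move together, and the cardiac and skeletal actins *Actc1* and *Acta1* were at 52.2 and 48.3 CPM in the later DN2b library. Their part in the results below was not tested beyond the values given by pair.

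**Figure D1:**
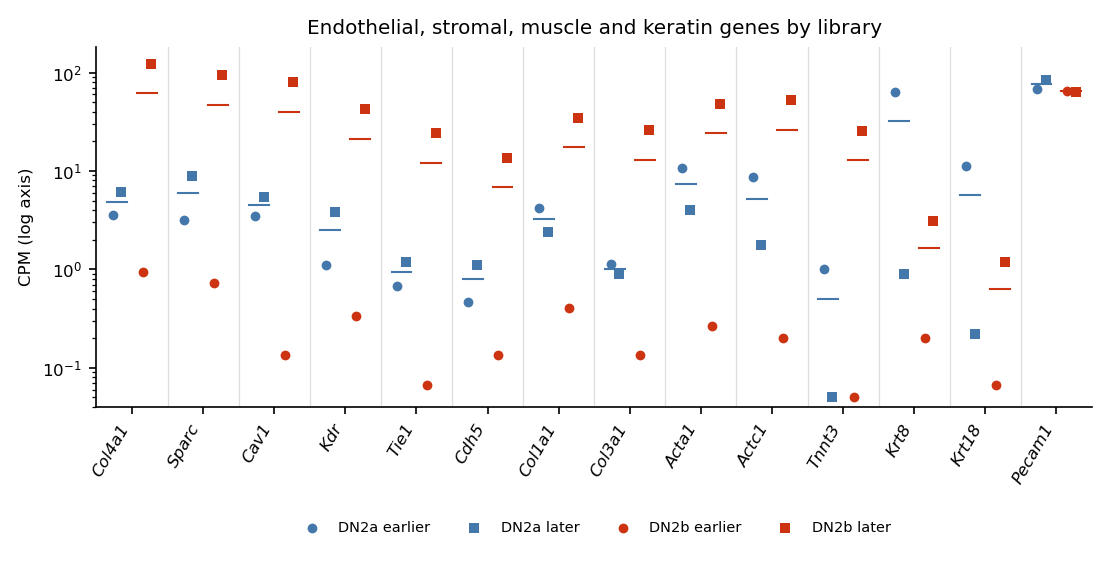
Level of 14 endothelial, stromal, muscle and keratin genes in each of the 4 libraries (CPM, log axis; bars are stage means of 2 libraries, and values under 0.05 CPM are drawn there). In the later DN2b library (red squares) the collagen and muscle genes, and the endothelial genes other than *Pecam1*, are the highest of the 4 libraries. *Krt8* and *Krt18* are highest in the earlier DN2a library, and *Pecam1* is alike in all 4.

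The gates were checked first, and since the cells were sorted on these 3 proteins the values are a check and not a result. *Cd44* RNA was at 44.4 and 54.2 CPM in DN2a and 13.5 and 10.9 CPM in DN2b, log2FC -1.99 ± 0.18, adjusted p = 0.00911. *Kit* was at 173 and 212 CPM in DN2a and 130.4 and 176 CPM in DN2b, lower in DN2b in both pairs but short of the test (log2FC -0.32 ± 0.11, adjusted p = 0.243). *Il2ra*, which encodes CD25, was at 1623 and 1171 CPM in DN2a and 2176 and 1729 CPM in DN2b (log2FC 0.51 ± 0.11, adjusted p = 0.0939). *Cd44* and *Kit* RNA were thus lower in DN2b in both pairs, as their proteins were gated, and *Il2ra* was present at both stages. *Cd44* alone passed in the paired edgeR fit described next, and the paired DESeq2 fit also called *Il2ra* higher (adjusted p = 0.000114).

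In the fit of all 10 libraries without pairing, 0 of 12221 genes tested were higher and 0 lower in DN2b (0% in each direction; edgeR, quasi-likelihood, adjusted by Benjamini-Hochberg). There were 335 genes at an unadjusted p under 0.05, the smallest adjusted p was 0.0627 (*Pld4*), and DESeq2 on the same libraries called 16 higher and 13 lower. With the 4 libraries paired by date, 175 genes were higher in DN2b (1.43% of those tested) and 102 lower (0.835%) at an adjusted p under 0.05. All 277 had the same sign in both pairs, which a paired test on 2 pairs all but requires and which adds no support. Of all genes tested, 28.7% were higher and 33.7% lower in DN2b within both pairs, whatever the size. The counts of list members higher or lower in both pairs given below stand against these shares. Counts of members that passed stand against the 1.43% and 0.835%. Both DN2b libraries lay above both DN2a libraries in 1790 of the 12221 genes tested and under both in 1932. Stages that do not overlap are therefore common, and such statements below stand against these counts. In the same paired 4 libraries DESeq2 called 221 and 138, of which 150 and 89 were shared with the edgeR calls. With the DN1 pair added to the blocked fit, 0 genes passed in either direction, as in the 4 DN2 libraries without the block. Below, rose and fell are used only of genes that passed in the paired fit of the 4 libraries, and each log2 fold change (log2FC, DN2b over DN2a, ± SE, n = 2 pairs) and adjusted p is from that fit unless the 10-library fit is named. Of 90 named genes that passed, library size scaling in place of TMM in the paired fit ended the call of *Bcl11b*, *Txk*, *Gbp3*, *Gimap4*, *Socs2*, *Bcl2*, *Tnfrsf9*, *Cxcr5*, *Itgae*, *Igf2*, *Tmem176b*, *Card6*, *Sirpa*, *Cfp*, *Cd180* and *Irf5* (adjusted p from 0.0511 to 0.0889). Among the same 90 genes, the log2FC of the 10-library fit dropped to under 0.5 of its value, and by over 1.5-fold, in the following when 1 library was left out. Without the later DN2b library these were *AA467197* (4.13 to 1.56), *Blk* (3.16 to 1.5), *Bmf* (1.5 to 0.61), *Cxcr5* (1.78 to 0.03), *Gimap4* (2.66 to 0.54), *Gimap8* (1.48 to -0.05), *Igf2* (2.73 to 1.20), *Ramp3* (3.49 to 1.71), *Tmem176a* (0.87 to 0.24) and *Tnfrsf9* (2.26 to 0.46). Without the earlier DN2b library they were *Ndrg2* (2.59 to 0.42), *Ptcra* (1.81 to 0.02) and *Rag1* (1.97 to 0.57). Without the later DN2a library they were *Ccl9* (-3.78 to -0.43), *Cd63* (-1.48 to -0.60) and *Fcgr3* (-2.17 to 0.97). The 10-library fit takes no account of the pairs, so leaving out 1 library also unbalances the dates. These values mix differences between dates with those between stages and do not test the paired calls. The paired fit leaves 1 residual degree of freedom a gene, to which edgeR adds the spread of all genes.

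A second rule needed no test: among 9208 genes whose higher stage averaged 5 CPM or more, 135 were at least 2-fold higher in DN2b within both pairs (1.47%) and 68 at least 2-fold lower (0.738%). Of the genes that rose, 91 met this rule, as did 51 of those that fell. The pairs did not contribute alike. In the earlier pair, 162 genes were at least 2-fold higher and 192 lower, and in the later pair 462 were higher and 228 lower. The 135 shared higher genes made up 83.3% of the earlier list and 29.2% of the later list. The 68 shared lower genes were 35.4% and 29.8% of theirs. Another 88 genes were at least 2-fold lower in DN2b in the earlier pair and at least 2-fold higher in the later pair, 85 of them with their highest level in the later DN2b library, and 0 went the opposite way. No paired test is given for them, since the choice for opposite signs in the pairs bears on its outcome, and 16 of them were on the list of endothelial, stromal and muscle genes. In bulk RNA, a change in the number of cells of a kind and a change in the RNA of each cell cannot be told apart.

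**Figure D2:**
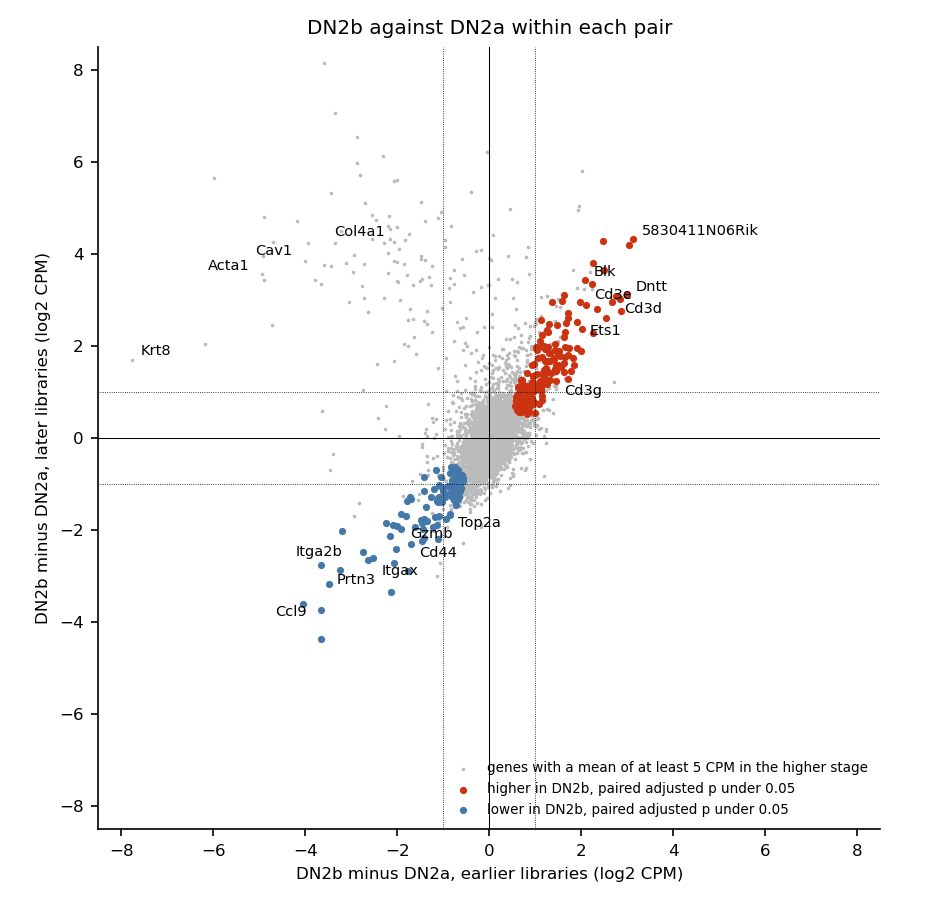
DN2b minus DN2a in the earlier libraries (x axis) against the later libraries (y axis), in log2 CPM, for the 9208 genes whose higher stage averaged 5 CPM or more. Coloured genes passed the paired test (red higher, blue lower). They lie in the upper right and lower left, which that test all but requires. The genes at the upper left, *Col4a1*, *Cav1* and *Acta1* among them, are lower in DN2b in the earlier pair and higher in the later pair.

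The genes of the TCR complex and of its rearrangement were higher in DN2b throughout. Of the 8 members of the list (4 CD3 chains, the pre-TCR alpha chain, both RAG genes and terminal transferase), 8 were higher in both pairs and 7 rose. The median log2FC was 1.89 over the list in the 10-library fit, against -0.00396 over all genes tested. *Cd3g*, *Cd3d* and *Cd3e* lie together on chromosome 9, at 44969572 to 44980431 (minus strand), 44981786 to 44987339 (plus strand) and 44998740 to 45009627 (minus strand; mm10, GENCODE vM21). The bases before the start sites of 6 of the members are shown because these genes moved together, beside *Itgax* and *Gzmb*, which fell, and the mitotic cyclin *Ccnb1*, which also fell. Each line gives the 150 bases before the RefSeq start site (GRCm38.p6), 5′ to 3′ in the direction of transcription, in lower case with CpG dinucleotides in capitals.
Cd3g (chr9:44980432-44980581, minus strand): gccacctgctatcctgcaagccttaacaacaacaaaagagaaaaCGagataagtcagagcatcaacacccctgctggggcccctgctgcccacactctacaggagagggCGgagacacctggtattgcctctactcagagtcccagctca
Cd3d (chr9:44981636-44981785, plus strand): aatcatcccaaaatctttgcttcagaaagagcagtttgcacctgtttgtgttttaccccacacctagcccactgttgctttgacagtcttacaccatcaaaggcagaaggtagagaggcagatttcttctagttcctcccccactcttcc
Cd3e (chr9:45009612-45009761, minus strand): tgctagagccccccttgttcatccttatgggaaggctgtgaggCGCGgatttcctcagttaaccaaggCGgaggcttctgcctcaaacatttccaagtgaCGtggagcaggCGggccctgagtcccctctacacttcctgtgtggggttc
Ptcra (chr17:46763713-46763862, minus strand): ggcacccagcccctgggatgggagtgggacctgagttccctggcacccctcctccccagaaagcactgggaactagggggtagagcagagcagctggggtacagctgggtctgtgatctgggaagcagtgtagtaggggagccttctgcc
Rag1 (chr2:101649533-101649682, minus strand): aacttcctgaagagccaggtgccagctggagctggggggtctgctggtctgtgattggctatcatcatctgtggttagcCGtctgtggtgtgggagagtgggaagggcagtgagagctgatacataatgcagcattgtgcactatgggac
Dntt (chr19:41029125-41029274, plus strand): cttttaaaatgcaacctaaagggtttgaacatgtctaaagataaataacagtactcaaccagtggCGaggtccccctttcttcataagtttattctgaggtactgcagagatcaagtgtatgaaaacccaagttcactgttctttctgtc
Itgax (chr7:128129400-128129549, plus strand): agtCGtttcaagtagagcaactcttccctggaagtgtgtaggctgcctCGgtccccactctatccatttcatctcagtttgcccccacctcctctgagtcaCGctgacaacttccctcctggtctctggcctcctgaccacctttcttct
Gzmb (chr14:56262335-56262484, minus strand): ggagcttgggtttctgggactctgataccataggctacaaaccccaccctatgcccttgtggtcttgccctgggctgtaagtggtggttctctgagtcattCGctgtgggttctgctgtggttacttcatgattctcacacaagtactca
Ccnb1 (chr13:100786487-100786636, minus strand): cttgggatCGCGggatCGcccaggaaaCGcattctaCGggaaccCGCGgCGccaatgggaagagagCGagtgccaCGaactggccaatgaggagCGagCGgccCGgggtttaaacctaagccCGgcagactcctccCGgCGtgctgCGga

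Over the 300 bases around the start, the ratio of observed to expected CpG lay under 0.4 in all 8 genes of the CD3 and rearrangement list, from 0.0357 in *Ptcra* to 0.333 in *Cd3e*. Such a ratio was found in 51.4% of all 32851 windows of the RefSeq table and in 14.4% of the 9762 tested genes with a window (79.9% of those tested), so the background depends on the windows taken. It was as low in *Itgax* (0.275) and *Gzmb* (0.103), which fell, and it was 0.883 in *Ccnb1*, so a low ratio did not go with one direction among the genes printed. The motif CANNTG, the core bound by E proteins, which reads the same on both strands, occurred in the 300-base window of all 8, of *Itgax* and of *Gzmb* but not of *Ccnb1*, and in 72.3% of all windows. Of 6 other motifs searched on both strands, AGATAA occurred in 2 of the 8 windows (11.2% of all windows), TGGGAA in 4 (25.6%), TGTGGT in 1 (16.8%), CTTTGA in 2 (16%), CCGGAA in 0 (14.9%) and ACTACA in 2 (10.3%). Among the tested genes with a window these shares were 67.1% for CANNTG, 7.92% for AGATAA, 26.6% for TGGGAA, 15.5% for TGTGGT, 14.3% for CTTTGA, 31.8% for CCGGAA and 12.6% for ACTACA, and nothing is read from the counts in 8 genes. CpG content of all genes that rose or fell is not set against that of all genes tested. Windows were matched for only 73.1% of those that rose and 79.9% of all genes tested, too few for such a check. For those that fell the share was 80.4%.

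*Cd3g* was at 744 and 516 CPM in DN2a and 2019.6 and 1224 CPM in DN2b, log2FC 1.36 ± 0.11, adjusted p = 0.00713. *Cd3d* was at 49.9 and 67.1 CPM in DN2a and 335 and 571 CPM in DN2b, log2FC 2.93 ± 0.14, adjusted p = 0.0024. *Cd3e* was at 22.1 and 14.9 CPM in DN2a and 94.8 and 111 CPM in DN2b, log2FC 2.49 ± 0.21, adjusted p = 0.00713. The lowest DN2b library lay above the highest DN2a library for each of these chains, as for 1790 of the 12221 genes tested. *Cd247*, the CD3 zeta chain, was separated in the same way at 21.1 and 14.9 CPM in DN2a and 61.2 and 51.9 CPM in DN2b (log2FC 1.68 ± 0.14, adjusted p = 0.00696). *Dntt*, terminal transferase, which adds bases at the joints of rearranging receptor genes, was at 7.45 and 9.14 CPM in DN2a and 59.9 and 79.1 CPM in DN2b, log2FC 3.08 ± 0.13, adjusted p = 0.0024. *Rag1*, one of the paired recombinase genes on chromosome 2, was at 8.95 and 2.15 CPM in DN2a and 35.6 and 8.28 CPM in DN2b (log2FC 1.99 ± 0.20, adjusted p = 0.0125), and *Ptcra*, the pre-TCR alpha chain, at 11.2 and 2.23 CPM in DN2a and 40.4 and 6.85 CPM in DN2b (log2FC 1.77 ± 0.19, adjusted p = 0.0163). For these 2 genes the later libraries lay under the earlier library of the same stage, so the stages overlapped although DN2b was higher within each pair. *Rag2* was at 7.23 and 2.6 CPM in DN2a and 13.7 and 3.42 CPM in DN2b and did not pass (log2FC 0.69 ± 0.31, adjusted p = 0.349).

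**Figure D3:**
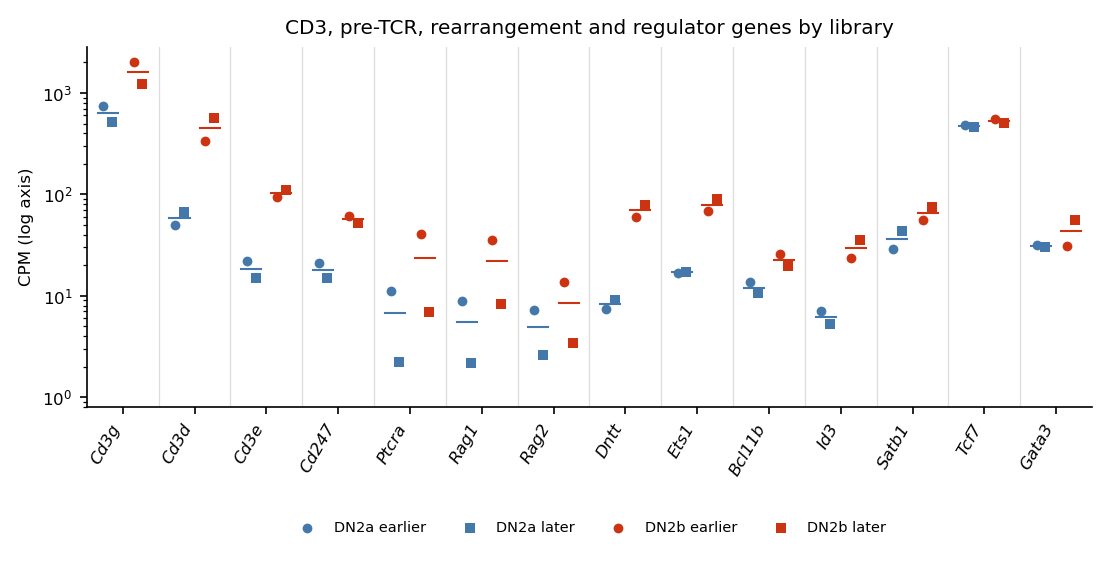
Level of 14 genes in each library (CPM, log axis; circles earlier, squares later, blue DN2a, red DN2b, bars stage means of 2 libraries). The CD3 chains, *Dntt*, *Ets1* and *Id3* separate the stages, *Ptcra* and *Rag1* are shifted between pairs within each stage, and the *Tcf7* values lie between 462 and 550.4 CPM.

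Of 19 T-lineage regulators tested, 4 rose and 0 fell, and 13 were higher in both pairs (28.7% of all genes were). *Ets1*, a factor that binds many TCR-locus and CD3 enhancers, was at 16.9 and 17.2 CPM in DN2a and 68.3 and 89.2 CPM in DN2b, log2FC 2.2 ± 0.14, adjusted p = 0.00324, higher in both DN2b libraries than in either DN2a library. *Id3*, an inhibitor of E proteins, was at 7.13 and 5.27 CPM in DN2a and 23.6 and 35.3 CPM in DN2b (log2FC 2.22 ± 0.28, adjusted p = 0.0209). The chromatin organizer *Satb1* was at 29.2 and 43.2 CPM in DN2a and 55.6 and 74.3 CPM in DN2b (log2FC 0.88 ± 0.11, adjusted p = 0.0216). *Bcl11b*, required for commitment, was at 13.5 and 10.5 CPM in DN2a and 25.9 and 19.4 CPM in DN2b (log2FC 0.93 ± 0.16, adjusted p = 0.0483), and it did not pass in the paired DESeq2 fit (adjusted p = 0.217). *Ets1* and *Id3* were near their DN1 levels in DN2a, with *Ets1* at 15.2 and 14.2 CPM and *Id3* at 6.08 and 2.94 CPM in DN1, while *Bcl11b* was at 2.26 and 1.3 CPM there.

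The remaining 15 regulators had adjusted p values of 0.0636 or more. *Tcf7*, the Notch-induced factor TCF1, was at 485 and 462 CPM in DN2a and 550.4 and 502 CPM in DN2b (log2FC 0.17 ± 0.11, adjusted p = 0.522). *Gata3* was at 32 and 30.3 CPM in DN2a and 30.8 and 55.9 CPM in DN2b, higher in DN2b in the later pair only. *Runx1* (52.1 and 56.3 CPM in DN2a and 82 and 77.9 CPM in DN2b) and *Ets2* (11.6 and 10.1 CPM in DN2a and 19.4 and 24.1 CPM in DN2b) were higher in both DN2b libraries than in either DN2a library, with adjusted p = 0.0636 and 0.0708. *Tcf12*, *Myb*, *Gfi1*, *Sox13* and *Nfatc3* were also higher within both pairs, *Zfpm1* was lower in both, and *Tcf3*, *Runx3*, *Ikzf1* and *Tox* changed sign between pairs. *Spib* was at 5 counts or fewer in each library. *Lef1* was too low to be tested, with at most 46 counts.

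Genes of proximal TCR signalling and the T cell surface were next: 7 of 23 rose, 0 fell, and 17 were higher in both pairs, against 28.7% of all genes (median log2FC 0.59 in the 10-library fit). *Skap1*, an adaptor that links the TCR to integrin activation, was at 1.86 and 2.53 CPM in DN2a and 9.74 and 18.1 CPM in DN2b, log2FC 2.63 ± 0.30, adjusted p = 0.0179. *Thy1* was at 159 and 112 CPM in DN2a and 495 and 382 CPM in DN2b, log2FC 1.72 ± 0.11, adjusted p = 0.00324. *Txk*, a Tec-family kinase, was at 17.7 and 19.7 CPM in DN2a and 42.7 and 97.4 CPM in DN2b (log2FC 1.8 ± 0.25, adjusted p = 0.0283), and *Rasgrp1*, which couples the TCR to Ras, at 25.2 and 27.3 CPM in DN2a and 61.3 and 86.9 CPM in DN2b (log2FC 1.49 ± 0.14, adjusted p = 0.0113). *Grap2*, *Cd28* and *Trat1* also rose, with log2FC of 1.09, 1.38 and 0.67. The kinase *Lck* was at 428 and 304 CPM in DN2a and 606 and 294 CPM in DN2b and did not pass (log2FC 0.25 ± 0.15, adjusted p = 0.496). *Themis* was at 3.76 and 4.6 CPM in DN2a and 7.34 and 18 CPM in DN2b but did not pass (adjusted p = 0.104). Of 5 genes of later T-lineage cells, 3 rose: the chemokine receptor *Ccr7* (18.8 and 14 CPM in DN2a and 64.4 and 38.4 CPM in DN2b; log2FC 1.65 ± 0.14, adjusted p = 0.00713), *Ly6d* (log2FC 1.28 ± 0.14, adjusted p = 0.0172) and *Trat1*. *Ccr9* was at 0.179 and 0.223 CPM in DN2a and 0.467 and 2.07 CPM in DN2b, and *Cd4*, *Cd8a* and *Cd8b1* had at most 8 counts in any library.

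Some of the largest consistent increases lay outside these lists. *5830411N06Rik* and its neighbour on chromosome 7, *Cd163l1*, are the scavenger receptor genes also called Scart2 and Scart1. *5830411N06Rik* was at 4.01 and 4.53 CPM in DN2a and 35.9 and 93 CPM in DN2b and at 0 counts in both DN1 libraries, with log2FC 3.74 ± 0.29, adjusted p = 0.00617. *Cd163l1* was at 6.09 and 4.08 CPM in DN2a and 34 and 80.8 CPM in DN2b, log2FC 3.32 ± 0.41, adjusted p = 0.0209. *Pld4*, which encodes a lysosomal exonuclease, was among the most even: 4.66 and 4.68 CPM in DN2a and 34.3 and 32.2 CPM in DN2b, log2FC 2.85 ± 0.17, adjusted p = 0.00324. *Cd97*, an adhesion receptor, was at 1.18 and 4.08 CPM in DN2a and 9.08 and 33.7 CPM in DN2b, with DN1 levels of 41.3 and 7.93 CPM (log2FC 3.01 ± 0.23, adjusted p = 0.00521). *AA467197* was at 0.895 and 4.6 CPM in DN2a and 7.94 and 85.8 CPM in DN2b, log2FC 3.82 ± 0.28, adjusted p = 0.00493. *Ramp3*, a partner of calcitonin-family receptors, was at 2.08 and 4.23 CPM in DN2a and 10.3 and 60.3 CPM in DN2b, log2FC 3.12 ± 0.37, adjusted p = 0.0209. Both were highest in the later DN2b library. *Card6* (0.501 and 1.56 CPM in DN2a and 3.34 and 10 CPM in DN2b; log2FC 2.72 ± 0.44, adjusted p = 0.0399) and *Ndrg2* (log2FC 2.96 ± 0.39, adjusted p = 0.0246) completed the 12 genes with the largest increase in the pair that moved less, after *Dntt*, *Cd3d*, *Skap1* and *Gbp6*. *Ndrg2* rose in both pairs from very unequal levels, 5.37 and 0.223 CPM in DN2a and 30.6 and 3.82 CPM in DN2b. *Blk*, a Src-family kinase of B cells and some T cells, was at 1.72 and 3.64 CPM in DN2a and 7.54 and 40.1 CPM in DN2b (log2FC 2.84 ± 0.36, adjusted p = 0.0216).

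Guanylate-binding proteins, interferon-inducible GTPases, rose in 7 of the 8 tested (1.43% of all genes did), a list chosen after its values were seen. *Gbp6* was at 4.76 and 7.58 CPM in DN2a and 30.8 and 59.7 CPM in DN2b, log2FC 2.85 ± 0.16, adjusted p = 0.00324, and *Gbp4* at 7.52 and 4.9 CPM in DN2a and 28.6 and 28.5 CPM in DN2b, log2FC 2.23 ± 0.21, adjusted p = 0.0115. *Gbp2*, *Gbp3*, *Gbp5*, *Gbp8* and *Gbp9* had log2FC between 0.86 and 1.66, while *Gbp7* was at 12.6 and 12.1 CPM in DN2a and 17.4 and 10.2 CPM in DN2b. *Gbp2*, *Gbp3* and *Gbp5* stand on chromosome 3 and the others that rose on chromosome 5, where the annotated bodies of *Gbp4*, *Gbp8* and *Gbp9* overlap, so reads may be split among these copies. In the paired DESeq2 fit *Gbp2*, *Gbp3* and *Gbp5* had adjusted p values of 0.0555, 0.0723 and 0.0673.

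All 8 *Gimap* genes tested, GTPases of lymphocyte survival clustered on chromosome 6, were higher in DN2b within both pairs and 2 rose. *Gimap4* was at 7.05 and 18.2 CPM in DN2a and 18.3 and 141 CPM in DN2b (log2FC 2.24 ± 0.36, adjusted p = 0.0399) and *Gimap8* at 3.15 and 12.4 CPM in DN2a and 7.48 and 35.8 CPM in DN2b (log2FC 1.41 ± 0.19, adjusted p = 0.0271). *Gimap4* did not pass in the paired DESeq2 fit (adjusted p = 0.0889), which called 1 of the 8. *Gimap1*, *Gimap3*, *Gimap5*, *Gimap6*, *Gimap7* and *Gimap9* had log2FC between 0.35 and 1.33 with adjusted p of 0.084 or more. Levels were higher in the later than in the earlier library in both stages for all 8, so that the later DN2a library exceeded the earlier DN2b library for 6 of them. In the 10-library fit, which takes no account of the pairs, leaving out the later DN2b library turned the sign for *Gimap1*, *Gimap3*, *Gimap5*, *Gimap8* and *Gimap9*. Leaving out the earlier DN2a library turned it for *Gimap1* and *Gimap9*. *Khdc1a*, of a germ-cell gene cluster on chromosome 1, was at 177 and 72.7 CPM in DN2a and 339 and 184 CPM in DN2b, log2FC 1.15 ± 0.14, adjusted p = 0.0209, against 0.111 and 0.399 CPM in DN1. Its copies *Khdc1b* (2.9 and 1.41 CPM in DN2a and 7.48 and 2.47 CPM in DN2b) and *Khdc1c* (2.94 and 1.41 CPM in DN2a and 5.47 and 5.26 CPM in DN2b) did not pass.

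Of 16 genes of gamma-chain cytokine and STAT5 signalling, 3 rose and 0 fell, all 3 of them feedback inhibitors of cytokine receptors. *Socs1* was at 8.56 and 12 CPM in DN2a and 27.1 and 47.9 CPM in DN2b, log2FC 1.84 ± 0.16, adjusted p = 0.00911. *Socs3* was at 8.41 and 9.58 CPM in DN2a and 20.6 and 38.2 CPM in DN2b, log2FC 1.65 ± 0.22, adjusted p = 0.0249. *Socs2* was at 65.8 and 53.4 CPM in DN2a and 102 and 101 CPM in DN2b, log2FC 0.8 ± 0.12, adjusted p = 0.0374. *Il7r*, the receptor of the IL-7 supplied to both stages, was at 20.5 and 12 CPM in DN2a and 31 and 39.3 CPM in DN2b with adjusted p = 0.117, and *Il2rg* was at 135 and 156 CPM in DN2a and 196 and 218 CPM in DN2b with adjusted p = 0.0706. *Pim2* was at 10.7 and 35.4 CPM in DN2a and 16.4 and 104 CPM in DN2b (adjusted p = 0.0759), and without the later DN2b library its log2FC in the 10-library fit was -0.49. In the Bcl2 family of 14 genes, 3 rose and 1 fell (1.43% and 0.835% of all genes did). The antiapoptotic *Bcl2* was at 71.2 and 72 CPM in DN2a and 110.4 and 132 CPM in DN2b (log2FC 0.77 ± 0.12, adjusted p = 0.0359), and the BH3-only genes *Bcl2l11* (18.7 and 31 CPM in DN2a and 43.6 and 77.1 CPM in DN2b; log2FC 1.28 ± 0.12, adjusted p = 0.0104) and *Bmf* (4.26 and 10.9 CPM in DN2a and 11.5 and 31.1 CPM in DN2b; log2FC 1.49 ± 0.18, adjusted p = 0.0209), which promote apoptosis, rose beside it. *Bid*, another proapoptotic member, fell, at 47.4 and 57.4 CPM in DN2a and 27 and 30.4 CPM in DN2b (log2FC -0.84 ± 0.12, adjusted p = 0.0273).

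Among 14 costimulatory and checkpoint receptors, 2 rose (1.43% of all genes did). *Ctla4* was at 70.6 and 59.2 CPM in DN2a and 236 and 231 CPM in DN2b, log2FC 1.87 ± 0.12, adjusted p = 0.00324, and *Tnfrsf9* (4-1BB) at 12.4 and 27 CPM in DN2a and 27 and 161 CPM in DN2b, log2FC 1.91 ± 0.33, adjusted p = 0.0486. *Tnfrsf9* did not pass in the paired DESeq2 fit (adjusted p = 0.146), which called 1 of the 14. *Icos* was at or under 2.31 CPM and *Cd200* at 1 count or fewer in each library. Of 23 chemokine receptors and integrins, 3 rose and 1 fell: *Ccr7*, *Cxcr5* (5.87 and 17.7 CPM in DN2a and 12 and 68.8 CPM in DN2b; log2FC 1.55 ± 0.24, adjusted p = 0.0386) and *Itgae*, the CD103 chain (22.8 and 26.6 CPM in DN2a and 50.7 and 125 CPM in DN2b; log2FC 1.71 ± 0.26, adjusted p = 0.0324), rose, and *Itgax* fell. Of 13 Notch receptors and targets, 1 rose, against 1.43% of all genes. This was *Dtx1*, at 55.4 and 49.7 CPM in DN2a and 97.6 and 72.6 CPM in DN2b (log2FC 0.7 ± 0.12, adjusted p = 0.0422). *Notch1* was at 70.1 and 63.1 CPM in DN2a and 104 and 92.5 CPM in DN2b with adjusted p = 0.0561. The Notch targets *Hes1* (36.9 and 48.4 CPM in DN2a and 45.1 and 66.6 CPM in DN2b) and *Nrarp* (102 and 102 CPM in DN2a and 91 and 65.9 CPM in DN2b) did not pass, nor did *Notch3*, *Hey1*, *Heyl* and *Uaca*, which were higher within both pairs. The imprinted pair *H19* and *Igf2* on chromosome 7, chosen after their values were seen, rose together: *H19* was at 40.1 and 14.6 CPM in DN2a and 124 and 66.9 CPM in DN2b (log2FC 1.9 ± 0.17, adjusted p = 0.00911) and *Igf2* at 6.7 and 11.6 CPM in DN2a and 21 and 100.1 CPM in DN2b (log2FC 2.41 ± 0.34, adjusted p = 0.0294). The forkhead factor *Foxo1* was at 8.45 and 12.9 CPM in DN2a and 21.5 and 34.6 CPM in DN2b (log2FC 1.4 ± 0.16, adjusted p = 0.0172).

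The 12 genes with the largest decrease in the pair that moved less come first. *Itga2b*, the CD41 integrin chain of progenitors and megakaryocytes, was at 117 and 139 CPM in DN2a and 17.2 and 25 CPM in DN2b, log2FC -2.6 ± 0.13, adjusted p = 0.00253. *Itgax*, the CD11c chain of dendritic and other myeloid cells, was at 25.7 and 38.5 CPM in DN2a and 4.41 and 6.21 CPM in DN2b, log2FC -2.57 ± 0.17, adjusted p = 0.00324. *Plek*, pleckstrin, a signalling protein of platelets and leukocytes, was at 50.6 and 131 CPM in DN2a and 11.9 and 19.8 CPM in DN2b, log2FC -2.4 ± 0.17, adjusted p = 0.00418. In each case both DN2a libraries lay above both DN2b libraries, as for 1932 of the 12221 genes tested. *Ccl9*, a chemokine of myeloid cells, differed more between the pairs than between the stages and was lower in DN2b within each pair: 5.26 and 102 CPM in DN2a and 0.334 and 7.57 CPM in DN2b, log2FC -3.76 ± 0.18, adjusted p = 0.0024. *Prtn3*, the neutrophil proteinase 3, was at 7.7 and 15.8 CPM in DN2a and 0.601 and 1.67 CPM in DN2b (log2FC -3.41 ± 0.35, adjusted p = 0.0134), and *Sirpa*, *Cfp* (properdin), *Cd300a* and *Cd180* fell from between 3.62 and 12.2 CPM in DN2a to 1.4 CPM or less in DN2b. *Cldn2* (8.59 and 8.32 CPM in DN2a and 0.601 and 0.319 CPM in DN2b; log2FC -4.19 ± 0.46, adjusted p = 0.0172), *P2rx1* (log2FC -2.67 ± 0.26, adjusted p = 0.0125) and the Fc receptor *Fcgr3* (1.5 and 25.4 CPM in DN2a and 0.267 and 5.73 CPM in DN2b; log2FC -2.22 ± 0.31, adjusted p = 0.0274) completed the 12. *Fcgr3* was lower in DN2b within each pair but differed in level between the pairs. Without the later DN2a library its log2FC in the 10-library fit, which takes no account of the pairs, was 0.97.

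**Figure D4:**
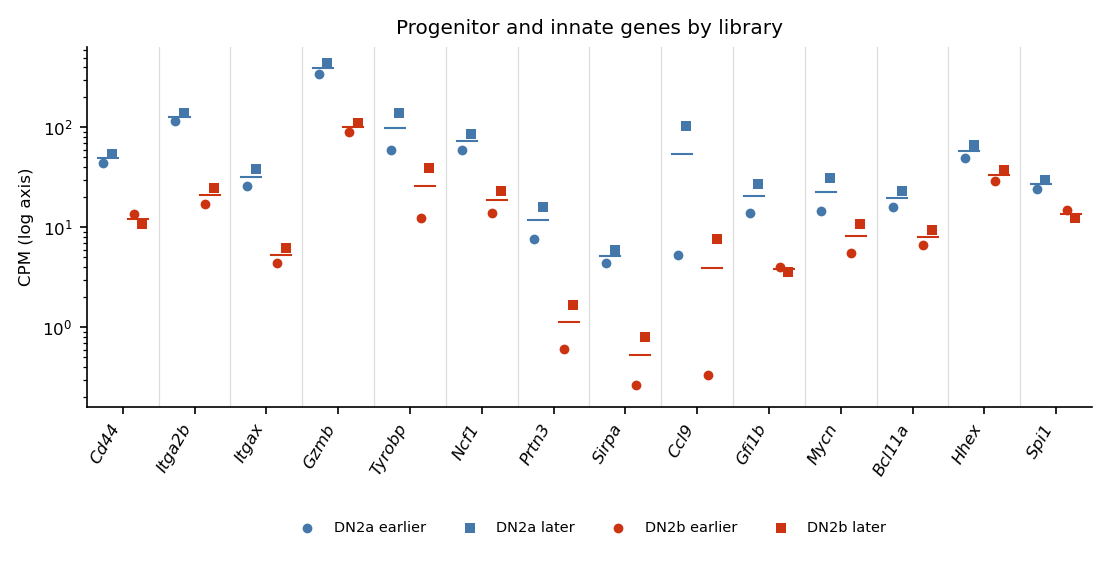
Level of 14 progenitor and innate genes in each library (CPM, log axis; circles earlier, squares later, blue DN2a, red DN2b, bars stage means of 2 libraries). The genes were picked for the figure, and all but *Spi1* fell, so DN2b lies under DN2a within both pairs for every gene shown by choice. They stand for no group. Within both pairs, 11 of the 26 legacy regulators were lower and 6 higher. Of 15 NK and innate lymphoid genes tested, 3 were lower and 7 higher. For *Ccl9* the pairs differ more than the stages.

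The genes of this paragraph other than *Gzmb* and *Gzma* were chosen after their values were seen, because they fell, and stand for no group. *Tyrobp* (DAP12) was at 59 and 139.6 CPM in DN2a and 12.3 and 38.9 CPM in DN2b, log2FC -2.01 ± 0.15, adjusted p = 0.00461. *Ncf1*, a subunit of the phagocyte oxidase, was at 60 and 85.7 CPM in DN2a and 14.1 and 23.2 CPM in DN2b, log2FC -1.97 ± 0.13, adjusted p = 0.00324. *Gzmb* was at 339.9 and 439.9 CPM in DN2a and 90.4 and 111 CPM in DN2b, log2FC -1.93 ± 0.11, adjusted p = 0.00324, while *Gzma*, a granzyme on the same list, was at 3256 and 862 CPM in DN2a and 4159 and 2537 CPM in DN2b and did not pass. *Angpt1*, a ligand made by stem and progenitor cells, was at 156 and 243 CPM in DN2a and 56.3 and 51.3 CPM in DN2b (log2FC -1.84 ± 0.19, adjusted p = 0.0134). *Cd244*, *Cd63*, *Lyn* and *Irf5*, which act in innate and myeloid cells, fell with log2FC of -1.48, -1.56, -0.85 and -1.58. *Irf5* (8.88 and 16.6 CPM in DN2a and 3.4 and 4.7 CPM in DN2b; adjusted p = 0.0478) did not pass in the paired DESeq2 fit (adjusted p = 0.0747).

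Of 26 stem and progenitor legacy regulators, 4 fell and 0 rose, and 11 were lower within both pairs (33.7% of all genes were). *Gfi1b*, a repressor of erythroid and megakaryocyte cells, was at 13.8 and 27.2 CPM in DN2a and 4 and 3.58 CPM in DN2b, log2FC -2.33 ± 0.31, adjusted p = 0.0261. *Mycn* was at 14.5 and 30.8 CPM in DN2a and 5.54 and 10.9 CPM in DN2b (log2FC -1.42 ± 0.17, adjusted p = 0.0209), *Bcl11a* at 16.1 and 22.9 CPM in DN2a and 6.61 and 9.32 CPM in DN2b (log2FC -1.27 ± 0.19, adjusted p = 0.0312) and *Hhex* at 48.9 and 66 CPM in DN2a and 29.1 and 37.8 CPM in DN2b (log2FC -0.76 ± 0.11, adjusted p = 0.0312). *Bcl11a* did not pass in the paired DESeq2 fit (adjusted p = 0.059). *Spi1*, which encodes PU.1, was at 24.5 and 29.7 CPM in DN2a and 15.1 and 12.3 CPM in DN2b, lower in both DN2b libraries than in either DN2a library with adjusted p = 0.0684. *Nfe2* was at 151 and 263 CPM in DN2a and 119 and 127 CPM in DN2b (log2FC -0.67 ± 0.17, adjusted p = 0.138) and *Lyl1* at 117 and 123 CPM in DN2a and 103 and 55.9 CPM in DN2b (log2FC -0.62 ± 0.22, adjusted p = 0.243). *Erg*, *Lmo4*, *Etv6*, *Runx2* and *Fli1* had log2FC between -0.33 and 0.33.

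Several legacy regulators were already low in DN2a. *Gata2* was at 168 and 15.6 CPM in DN1 and at 3.62 and 2.01 CPM in DN2a and 2.27 and 4.38 CPM in DN2b. *Lmo2* (4.58 and 7.8 CPM in DN2a and 1.6 and 7.17 CPM in DN2b), *Tal1* (13.3 and 21.2 CPM in DN2a and 7.48 and 23.9 CPM in DN2b), *Meis1*, *Mef2c* and *Zbtb16* did not pass, and *Mef2c* was lower in DN2b in the earlier pair and higher in the later pair (4.73 and 3.56 CPM in DN2a and 1.94 and 18.1 CPM in DN2b). *Hoxa5*, *Hoxa7*, *Hoxa9*, *Hoxa10*, *Hmga2*, *Hlf* and *Cebpa* stayed under 4 CPM in each of the 4 libraries, and *Id2*, also a gene of innate lymphoid cells, was at 17.9 and 21.5 CPM in DN2a and 24.2 and 64 CPM in DN2b (adjusted p = 0.148).

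Of 28 cell cycle genes, 7 fell and 0 rose, and 21 were lower within both pairs, against 33.7% of all genes (median log2FC -0.35 in the 10-library fit, -0.14 in the earlier pair and -0.68 in the later pair). *Top2a* was at 497 and 499 CPM in DN2a and 274 and 158 CPM in DN2b, log2FC -1.24 ± 0.19, adjusted p = 0.0363. *Mki67* was at 34.2 and 66.8 CPM in DN2a and 16 and 20.7 CPM in DN2b (log2FC -1.38 ± 0.17, adjusted p = 0.0209) and the kinase *Aurka* at 147 and 118 CPM in DN2a and 75.6 and 48.5 CPM in DN2b (log2FC -1.1 ± 0.12, adjusted p = 0.0172). *Cdk1*, *Ccnb1*, *Aurkb* and *Plk1* fell with log2FC between -1.02 and -0.9. *Cenpe* was at 10.1 and 13.8 CPM in DN2a and 4.87 and 5.18 CPM in DN2b with adjusted p = 0.0924. The replication helicase subunit *Mcm5* was at 776 and 565 CPM in DN2a and 692 and 321 CPM in DN2b and the sliding clamp *Pcna* at 973 and 856 CPM in DN2a and 1015 and 655 CPM in DN2b. Of 11 cyclins and CDK inhibitors, 0 passed in either direction in the paired edgeR fit, against 1.43% of all genes higher and 0.835% lower. In the paired DESeq2 fit 0 passed. An unadjusted p under 0.05 in the paired edgeR fit was reached by 3 of the 11, against 1951 of the 12221 genes tested. *Ccnd1*, *Cdkn1b*, *Cdkn2a* and *Cdkn1c* had log2FC of -0.8, 0.5, 1.5 and -0.34.

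**Figure D5:**
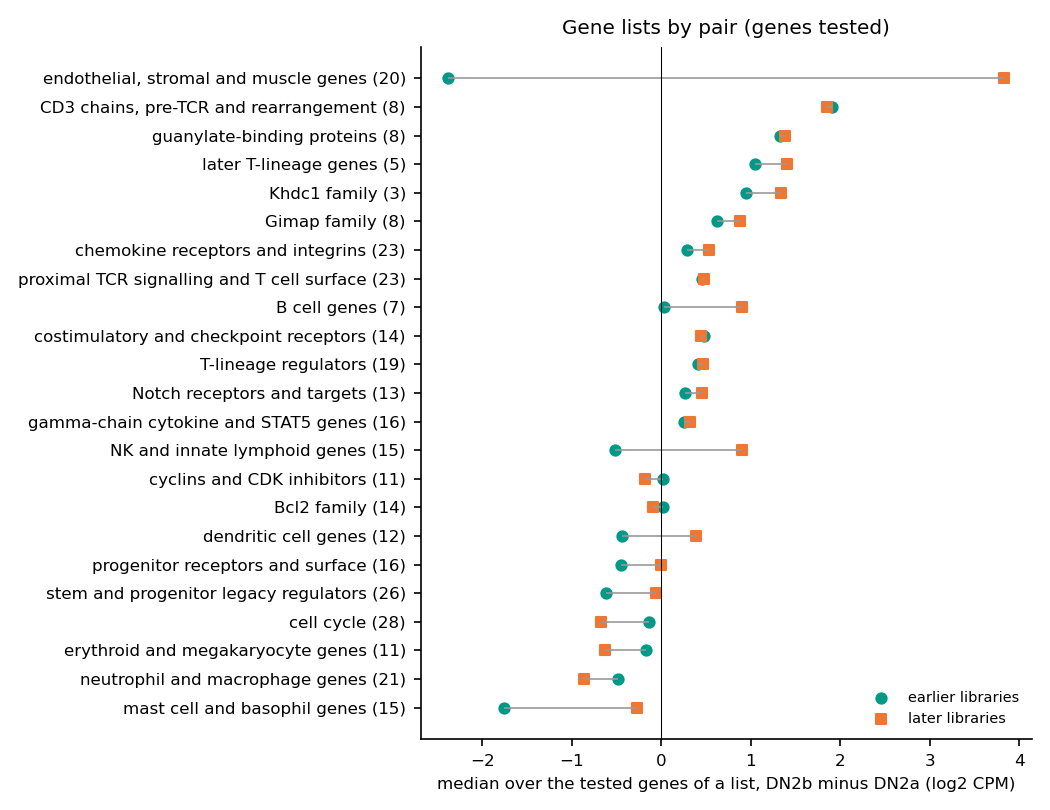
Median over each gene list of the DN2b minus DN2a difference (log2 CPM) in the earlier libraries (circles) and the later libraries (squares), with the number of genes tested in brackets. The CD3 and rearrangement, guanylate-binding and proximal TCR lists give nearly the same median in both pairs, the cell cycle list is lower in both, and the endothelial, stromal and muscle list goes from -2.38 to 3.83.

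Markers of other cell types were set beside these results. The 21 neutrophil and macrophage genes summed to 90.9 and 221 CPM in DN2a and to 30.2 and 62.1 CPM in DN2b, with 3 falling (*Prtn3*, *Fcgr3* and *Tyrobp*). Without *Tyrobp*, the highest of them, the other 20 summed to 31.9 and 81.3 CPM in DN2a and to 17.9 and 23.2 CPM in DN2b. Between 10 and 12 of them were at the floor in each library, and *Elane* and *Ms4a3* had 1 count or fewer in each library, while *Mpo* was at 2.22 and 4.38 CPM in DN2a and 0.0667 and 0.398 CPM in DN2b (adjusted p = 0.069). *Csf1r* had 3 counts or fewer in each library. The 15 mast cell and basophil genes summed to 621 and 812 CPM in DN2a and to 397 and 652 CPM in DN2b, with *Cpa3* at 371 and 571 CPM in DN2a and 257 and 454 CPM in DN2b. None of the 15 passed in the paired edgeR fit, and 1 was called by the paired DESeq2 fit. In the paired edgeR fit 6 were at an unadjusted p under 0.05, against 1951 of the 12221 genes tested. *Mcpt2* (14.9 and 3.42 CPM in DN2a and 1.27 and 2.07 CPM in DN2b), *Fcer1a*, *Ms4a2* and *Cma1* were lower within both pairs. The 16 erythroid and megakaryocyte genes summed to 132 and 165 CPM in DN2a and to 25.2 and 58.1 CPM in DN2b, but *Itga2b*, the 1 member that fell, made up most of the sum in both DN2a libraries and in the earlier DN2b library. The other 15 summed to 15.6 and 25.3 CPM in DN2a and to 7.94 and 33.1 CPM in DN2b, lower in DN2b in the earlier pair and higher in the later, with *Car2* at 11.6 and 18.9 CPM in DN2a and 4 and 11 CPM in DN2b. *Pf4* was at or under 0.573 CPM, *Gp1bb* at or under 3 counts, and the 4 globin genes at 0.

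The dendritic cell list showed no common direction: it summed to 193 and 183 CPM in DN2a and 175 and 242 CPM in DN2b, and of 12 genes tested *Itgax* alone passed. *Flt3* was at 0.895 and 1.41 CPM in DN2a and 1.27 and 4.78 CPM in DN2b, *Ciita* was under 1 CPM, and *Xcr1* had 1 count or fewer. In the NK and innate lymphoid list, *Gzmb* fell and *Tmem176a* and *Tmem176b* rose (log2FC 0.88 and 0.63), of 15 tested, and *Nfil3* (6.62 and 12 CPM in DN2a and 10.3 and 28.4 CPM in DN2b) and *Rora* were higher within both pairs without passing. The NK receptor gene *Ncr1* had at most 31 counts and *Eomes* at most 2. The 14 B cell genes summed to 12.5 and 18.3 CPM in DN2a and to 21.4 and 58.7 CPM in DN2b, and without *Blk* the other 13 summed to 10.7 and 14.7 CPM and to 13.9 and 18.6 CPM. Of 7 tested, *Blk* alone rose, *Ebf1*, too low to be tested, had 1 and 0 counts in DN2a and 0 and 56 counts in DN2b, *Pou2af1* and *Vpreb1* were under 5 CPM, and *Pax5* and *Cd79a* had at most 1 count. Of 16 progenitor receptors, *Cd44* and *Itga2b* fell and *Ly6a* (SCA1) rose, at 131 and 137 CPM in DN2a and 242 and 255 CPM in DN2b (log2FC 0.91 ± 0.11, adjusted p = 0.0205).

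The earlier step gives context for the genes that moved here. DN2a libraries enter both steps, and the DN1 to DN2a step also adds IL-7, so the values are set side by side only. The genes that rose from DN2a to DN2b had, in the 10-library fit, a median DN2a over DN1 log2FC of 0.9, and 140 of the 175 (80%) were above 0 there. The genes that fell had a median of -0.22, and 42 of the 102 (41.2%) were above 0. Over all genes tested the median was -0.0287 and 47.2% were above 0, and since both steps share the DN2a libraries these shares are a description only. *Cd3d* was at 0.705 and 7.53 CPM in DN1, *Thy1* at 6.34 and 7.63 CPM and *Ctla4* at 2.86 and 8.48 CPM, all under their DN2a levels. *Itga2b* (332 and 121 CPM), *Cd44* (116 and 159 CPM) and *Tyrobp* (246 and 261 CPM) were higher in DN1 than in DN2b. A test of the difference between the 2 steps in the 10-library fit called 0 genes, with 374 at an unadjusted p under 0.05 and 24 by DESeq2.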

How the data were processed

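RNA was sequenced from sorted cultures with a stranded total RNA kit. Per the labels and the methods, reads were aligned to mm10 with TopHat2 2.12 and tallied per gene with HTSeq 0.6.1p1 (intersection-strict), and Cufflinks 2.2.1 is also named in the submitters' processing notes. The gene annotation and strand setting are not given in the sources used here, so overlapping and antisense genes are uncertain. The authors deposited raw read counts per gene for each library, with replicates not pooled. The 5 summary lines of each library were dropped; reads in no gene feature made up 4.76 to 10% and reads aligned to more than 1 place 19.4 to 30.1% of those tallied in the DN2 libraries. There were 27 symbols that a spreadsheet had turned into dates, which were kept as written.

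A gene was tested if 2 or more of the 10 libraries reached 1 CPM (12221 of 24062). CPM are counts over TMM-scaled library sizes. The 10-library fit used edgeR 4.0.16 quasi-likelihood tests (TMM, prior count 0.125, Benjamini-Hochberg over all genes tested) in R 4.3.3. The paired fit used the 4 DN2 libraries with the label date as a replicate block, since both stages of a pair share a date. The pairing rests on that date. Deviations from the stage means correlated across genes at r = 0.27 between DN2a and DN2b, and at 0.0842 and 0.287 between DN1, whose dates differ, and DN2a and DN2b, so they do not single out the shared date. The methods describe separate LSK isolates, but p-values measure only the spread between these samples. The floors (3 counts in a library) cover counting error only, as there were no molecular identifiers.

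The comparison, its gene lists and tests were chosen with earlier results of these data known. Genes named were the 12 with the largest difference in the pair that moved less in each direction among those at least 2-fold changed in both pairs, all members of 6 lists (sort markers, CD3 and rearrangement, Gimap, Khdc1, T-lineage and legacy regulators), and up to 4 per other list. Other genes were named after their values were seen. Promoter windows came from RefSeq (GRCm38.p6), matched by symbol for 79.9% of genes tested, and gene positions from GENCODE vM21. Alternatives were DESeq2 1.42.0, other scalings, filters and prior counts, other sets of libraries, and leaving out each library. Figures were drawn with matplotlib 3.10.9.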

Additional observations from a re-analysis of the deposited data

Results flagged for a closer look

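In 88 genes the DN2b library lay at least 2-fold under the DN2a library in the earlier pair and at least 2-fold over it in the later pair. Median levels over these genes were 1.52 and 1.23 CPM in DN2a and 0.2 and 18.1 CPM in DN2b. The difference between the pairs was not tested, as each pair holds 1 library a stage.

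Among the named genes, *Mef2c* differed by -1.25 in the earlier pair and by 2.31 in the later pair on the log2 scale, and *Cebpa*, which had few counts in all 4 libraries, by -2.06 and 1.87. These differences between pairs were not tested either.

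Reads in no gene feature made up 6.44% of those tallied in the later DN2a library, 6.35% in the earlier DN2b library and 10% in the later DN2b library, against at most 5.01% in the IgG controls. Reads aligned to more than 1 place made up 25.7% in the later DN2a library and 30.1% in the later DN2b library, against at most 22.5% in the controls. Their part in the gene results was not tested.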

How the results depend on the processing

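The count of genes past the threshold depended on the design. Without pairing, the 10 libraries gave 0 higher and 0 lower, 16 and 13 with DESeq2, and 1 and 0 with no filter on low counts, and leaving out 1 library gave 0 to 1 higher (1 without the IgG library D2). The 4 DN2 libraries without the block gave 0 and 0, as did the 6 DN libraries with or without it. With the replicate block the 4 DN2 libraries gave 175 and 102, and with library size scaling 121 and 84. With the filter applied to these libraries (10757 genes tested) the block gave 150 and 84, and with DESeq2 221 and 138. Of the genes with the block, 119 and 84 were shared under library size scaling. By fold alone (log2FC of at least 2 in either direction), 650 genes passed in the 10-library fit, 389 with a prior count of 2, 2623 with no filter, and 756 to 971 when 1 library was left out. The 2-fold rule in both pairs gave 209 higher and 112 lower at 1 CPM, 462 higher in the later pair alone, and 192 lower in the earlier and 228 in the later pair alone. The difference between the steps gave 24 genes with DESeq2. A list median counted as moved if it shifted by the SD of its medians in the 2 pairs or more. By that rule medians moved in 10 of 120 cases, and none reversed. The rule is lax where the pairs differ. The median of the endothelial, stromal and muscle list did not count as moved. It went from 2.94 in the 10-library fit to 0.306 in the blocked fit of 6 libraries and 1.34 in the paired fit.

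The filter on the 4 libraries ended the calls of *Bcl11b*, *Cxcr5*, *Gbp3*, *Gimap4*, *Irf5* and *Tnfrsf9* (adjusted p from 0.0526 to 0.0665), and DESeq2 those of *Bcl11a*, *Bcl11b*, *Gbp2*, *Gbp3*, *Gbp5*, *Gimap4*, *Irf5* and *Tnfrsf9* (0.0555 to 0.217). Of the 90 named genes that passed, the fold in the 10-library fit moved by over 1.5 times in 12 without the earlier and 23 without the later DN2a library, and in 19 without the earlier and 28 without the later DN2b library.

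For single genes, 39 of 3716 values under an alternative had the opposite sign to the 10-library fit. Leaving out 1 library of that unpaired fit also unbalances the dates, so the ranges below do not test the paired calls. When 1 library was left out, the log2FC ran for *Fcgr3* from -5.61 to 0.97, *Rag2* from -0.53 to 1.70, *Gata3* from -0.01732 to 0.84, *Tcf3* from -0.56 to 0.10, *Runx3* from -0.0047 to 0.16, *Ikzf1* from -0.05414 to 0.10, *Tox* from -0.34 to 0.33, *Tal1* from -1.20 to 0.48 and *Lmo2* from -1.94 to 0.22. It ran for *Gata2* from -0.33 to 0.73, *Mef2c* from -1.10 to 2.116, *Hoxa5* from -1.07 to 2.92, *Hoxa7* from -4.65 to 2.47, *Hoxa9* from -3.45 to 5.43, *Hoxa10* from -4.37 to 2.90, *Zbtb16* from -2.95 to 0.69, *Cebpa* from -5.12 to 4.33 and *Etv6* from -0.17 to 0.05657. It also ran for *Pim2* from -0.49 to 2.50, *Gimap1* from -0.14 to 1.02, *Gimap3* from -0.66 to 3.35, *Gimap5* from -0.27 to 1.16, *Gimap8* from -0.05144 to 2.77, *Gimap9* from -0.33 to 0.99, *Rora* from -0.29 to 2.65, *Vpreb1* from -0.12 to 1.003 and *Cdkn1c* from -1.13 to 0.51. *Ikzf1* was also -0.00352 with no filter, and *Cebpa* 0.29 in the blocked fit of 6 libraries. The causes were not tested. Depth limits the genes near the floor of 3 counts.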
